A study of Mus musculus with 4 samples.

Results

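T-cell coreceptors and the surface and adaptor proteins that work beside them were examined in NK cells that the sort had gated as TCRb-, without surface T-cell receptor beta. The members were 10 genes taken by symbol: Cd4, Cd8a, Cd8b1, Cd28, Cd5, Cd6, Cd2, Trat1, Themis and Thy1. All 10 were found among the 21025 gene rows of the files. RNA came from livers of C57BL/6 mice in 4 polyA libraries, with no genetic change or treatment given in the labels. TRAIL+ cells (2 libraries) were TCRb-, NK1.1+, NKp46+, TRAIL+ and CD49b-, and CD49b+ cells (2 libraries) were TCRb-, NK1.1+, NKp46+, TRAIL- and CD49b+. The labels used here state no age, sex or number of mice per library, so each p-value rests on the spread of libraries that may be technical repeats.

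CD4 and CD8 are the coreceptors of T cells. They bind MHC molecules beside the T-cell receptor and carry the kinase Lck to it. CD8 is made either of an alpha and a beta chain, as on most cytotoxic T cells, or of alpha chains alone, as on some dendritic cells and innate-like lymphocytes. CD28 gives the costimulatory signal, CD2 is an adhesion receptor that binds CD48 in mice, and CD5 and CD6 are scavenger-receptor family proteins that tune receptor signals. Trat1 (also called TRIM) is a transmembrane adaptor, Themis a signalling protein of thymocyte selection, and Thy1 a small protein held in the membrane by a lipid anchor. CD2 and Thy1 are well known on mouse NK cells.

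Levels are given in RPKM, in which reads are divided by the gene's length and by the library's total. The totals, derived from the steps that single reads make in RPKM, ranged from 3786497 to 4232967. The sort genes were examined as a check of the labels and are no finding: Tnfsf10 (TRAIL) and Itga2 (CD49b) were called in the directions of the sort, and Klrb1c (NK1.1) and Ncr1 (NKp46) had log2 fold changes of -0.11 ± 0.27 and -0.03 ± 0.23 (SE). Several markers of other liver cells stood higher in replicate 1 of both subsets. The summed level of 9 Kupffer cell and monocyte genes, led by Lyz2 and Cd68, was 96.5 and 18.8 RPKM in TRAIL+ replicates 1 and 2, and 136 and 15.8 RPKM in CD49b+ replicates 1 and 2. Lyz2 alone stood at 81.9 and 9.21 RPKM in TRAIL+ and 122 and 8.87 RPKM in CD49b+ replicates 1 and 2. Clec4f and Cd5l went the other way in TRAIL+ cells, at 0.918 and 1.32 RPKM in replicate 1 and 1.32 and 3.23 RPKM in replicate 2. Their reads were 21 and 36 in TRAIL+ against 2 and 13 in CD49b+ cells. The hepatocyte sum, led by Alb and Apoa1, was 18.9 and 3.94 RPKM in TRAIL+ replicates 1 and 2, and 20.9 and 1.28 RPKM in CD49b+ replicates 1 and 2. The part of this RNA in the results was not tested, and each result is given with every library's value.

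Of the 10 genes, 3 were higher in TRAIL+ cells (Cd8a, Trat1 and Cd4), 2 were lower (Cd2 and Cd28) and 1 did not pass the test (Thy1). The other 4, Cd6, Cd5, Cd8b1 and Themis, were near 0 in both subsets and were not tested. Cd8a and Cd4 passed the filter for testing through the TRAIL+ libraries alone, so these genes had to differ in order to be tested, and Trat1 had 1 CD49b+ library above the limit. The same holds for Pdcd1, Sit1, Xcr1, Bik, Pak6, Adgrg3 and Ltb4r1 below, and through the CD49b+ libraries alone for Myb, Slamf6, Alcam and Slc15a3. The p-values of these genes, their place in a count and their place among the nearest genes carry this limit. That filter asked for 1 RPKM or more in 2 or more libraries, the test was limma on log2(RPKM + 1), and a gene is called at a Benjamini-Hochberg adjusted p under 0.05. Over all 10047 tested genes, 8.62% were called, 4.76% as higher and 3.86% as lower in TRAIL+ cells. Without CD49b+ replicate 2 the count of members was 1 higher (Cd8a) and 0 lower, without CD49b+ replicate 1 it was 3 higher and 1 lower (Cd2), and without either TRAIL+ library it stayed at 3 and 2. In such bulk samples, fewer cells that express a gene and less of its RNA in each cell cannot be told apart.

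**Figure D1:**
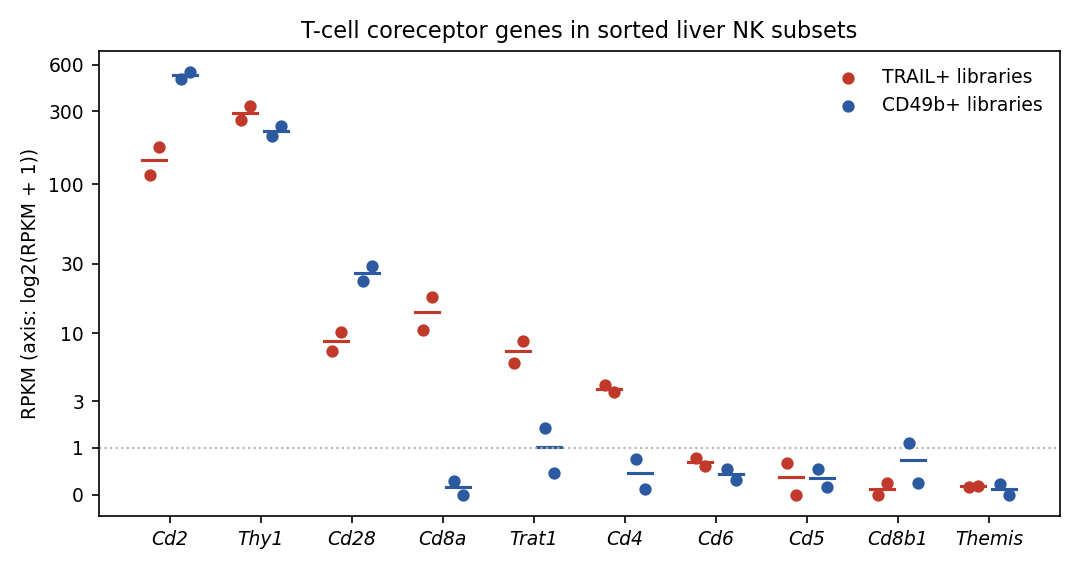
RPKM of the 10 genes in each library, on an axis of log2(RPKM + 1); dots are libraries (2 per subset), short bars are group means, and the dotted line is 1 RPKM. Cd2 and Thy1 stand above 100 RPKM in every library, and Cd8a, Trat1 and Cd4 are separated with TRAIL+ cells on top.

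Cd8a, the alpha chain of CD8, stood at 10.6 and 17.9 RPKM in TRAIL+ replicates 1 and 2, and at 0.226 and 0 RPKM in CD49b+ replicates 1 and 2. Both TRAIL+ libraries were far above both CD49b+ libraries, and the CD49b+ level rested on 3 reads against 347. Reads per total were 120.2 times as frequent in TRAIL+ cells (exact 95% counting interval 40.8 to 586). It was at least 57.9-fold without CD49b+ replicate 1, against a floor of 3 reads, and the ratio of mean RPKM was 62.9 without CD49b+ replicate 2. The log2 fold change was 3.74 ± 0.31 (SE; adjusted p = 0.00248 by limma, n = 2 per group), a size above that of 99.3% of tested genes. Its adjusted p stayed under the threshold in all 14 alternatives, between 4.01e-05 and 0.0175.

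Cd8b1, the beta chain, did not accompany it. Cd8b1 stood at 0 and 0.186 RPKM in TRAIL+ replicates 1 and 2, and at 1.16 and 0.179 RPKM in CD49b+ replicates 1 and 2. These values are 0, 1, 7 and 1 reads, so 7 of the 9 reads came from CD49b+ replicate 1, and the groups overlapped. The reads were 7.70 times as frequent in CD49b+ as in TRAIL+ cells, and the exact 95% interval of 1.03 to 342 covers counting error only. In TRAIL+ replicate 2 the level of Cd8a was 96.2 times that of Cd8b1, and in TRAIL+ replicate 1 Cd8b1 had no read beside 135 reads of Cd8a.

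Cd4 stood at 4.11 and 3.57 RPKM in TRAIL+ replicates 1 and 2, and at 0.685 and 0.0819 RPKM in CD49b+ replicates 1 and 2. The groups did not overlap, as was the case for 46.8% of all tested genes, and the CD49b+ libraries differed widely, with 9 reads and 1 read. The ratio of group means was 10.02, from 5.61 without CD49b+ replicate 2 to 46.9 without CD49b+ replicate 1. Its log2 fold change was 1.84 ± 0.30 (SE; adjusted p = 0.0190 by limma), on a scale that understates the change of low genes. Leaving out CD49b+ replicate 2 ended the call (adjusted p = 0.0648), as did a pseudocount of 0.1 (0.0636), in a range of 0.000939 to 0.0648 over 13 alternatives. Cd4 is a low gene in these cells: its mean level over the 4 libraries was above that of 9.53% of tested genes, and the level of Cd8a was 2.57 and 4.999 times that of Cd4 in TRAIL+ replicates 1 and 2.

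Among the adaptors, Trat1 stood at 6.05 and 8.80 RPKM in TRAIL+ replicates 1 and 2, and at 1.71 and 0.368 RPKM in CD49b+ replicates 1 and 2. Both TRAIL+ values were above both CD49b+ values, but the reads were few, at 40 over the TRAIL+ and 6 over the CD49b+ libraries. The ratio of group means was 7.14 (4.34 and 20.2 with CD49b+ replicate 2 or 1 left out), and on the log2 scale the difference was 2.11 ± 0.39 (SE; adjusted p = 0.0309 by limma). This was the least firm of the 5 calls by adjusted p. Its adjusted p rose past the threshold with CD49b+ replicate 2 left out (0.0777), with a pseudocount of 0.1 (0.0649), with no filter (0.0713) and with voom on the reads (0.0767), in a range of 0.00271 to 0.0777. The steps of the Trat1 RPKM gave a gene length of 690 bases, whereas the transcript annotated in GENCODE M21 has 4665. A multiple of 690 bases is possible if all reads of Trat1 share a factor, and its reads would then be more. The level of Trat1 therefore cannot be set beside those of other genes with the same trust. The other adaptor, Themis, had 2, 2, 3 and 0 reads in TRAIL+ replicates 1 and 2 and CD49b+ replicates 1 and 2, and no more than 0.178 RPKM in any library. A difference between the subsets was not detectable at that depth, where TRAIL+ over CD49b+ reads per total came to 1.39 (0.234 to 9.46 from counting error).

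The promoters of Cd8a and Trat1 are shown because both genes were higher in TRAIL+ cells and 4 of the 10 members (Cd8a, Cd5, Trat1 and Themis) matched an entry in the RefSeq promoter table of GRCm38.p6. Each sequence is the 250 bases before the start that this table gives, 5′ to 3′ on the gene's strand, chr6:71373177-71373426 (+) for Cd8a and chr16:48772063-48772312 (-) for Trat1. The bases after the start were found in the annotated transcript for Cd8a but not for Trat1, so the Trat1 window is less certain. Capitals mark matches on either strand to 5 short motifs of factor families that act in lymphocytes. The letters searched for RUNX factors were TGTGGT. The E-box of basic helix-loop-helix factors was searched as CANNTG. The half-site of T-box factors was taken as GGTGTG. For TCF and LEF factors the letters were CTTTGA. For the zinc-finger family of Gata3 they were AGATAA. None of the matches overlapped another.
Cd8a: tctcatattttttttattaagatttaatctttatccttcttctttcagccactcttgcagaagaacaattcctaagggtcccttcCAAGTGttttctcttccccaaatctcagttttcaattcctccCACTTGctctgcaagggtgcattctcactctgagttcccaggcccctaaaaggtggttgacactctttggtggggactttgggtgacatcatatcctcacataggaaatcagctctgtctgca
Trat1: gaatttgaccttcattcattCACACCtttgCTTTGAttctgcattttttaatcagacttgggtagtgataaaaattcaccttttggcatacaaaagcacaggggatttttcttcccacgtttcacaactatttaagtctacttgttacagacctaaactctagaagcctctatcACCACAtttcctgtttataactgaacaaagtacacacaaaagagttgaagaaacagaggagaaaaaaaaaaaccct
The Cd8a window held 2 E-box matches, CAAGTG and CACTTG, and no match to the other 4 motifs. The Trat1 window held 1 match each to the T-box, TCF/LEF and RUNX motifs, in that order from the 5′ end, and none to the E-box or the Gata3 family motif. The windows thus shared no motif of the 5. Of 32851 promoter windows of the same length, 66.2% held an E-box match, 16.3% a T-box, 14% a RUNX, 13.8% a TCF/LEF and 9.99% a Gata3 family match. A match is a description of these letters only.

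The receptors Cd2 and Cd28 moved the other way. Cd2 stood at 116 and 174 RPKM in TRAIL+ replicates 1 and 2, and at 484 and 539 RPKM in CD49b+ replicates 1 and 2. It was abundant in both subsets, above 95.4% of tested genes in TRAIL+ and 99.0% in CD49b+ cells, and the groups did not overlap. The mean was 145 ± 41.3 RPKM in TRAIL+ and 512 ± 38.3 RPKM in CD49b+ cells (SD, n = 2 each), a 3.53-fold difference. On the log2 scale the difference was -1.84 ± 0.25 (SE; adjusted p = 0.0101 by limma). It no longer passed when CD49b+ replicate 2 was left out (adjusted p = 0.0661, the highest over 14 alternatives, the lowest being 8.72e-05).

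Cd28 stood at 7.50 and 10.2 RPKM in TRAIL+ replicates 1 and 2, and at 22.9 and 29.0 RPKM in CD49b+ replicates 1 and 2. All libraries held Cd28, with 132 to 492 reads, and both CD49b+ values were above both TRAIL+ values. The means of 8.85 ± 1.91 and 25.9 ± 4.31 RPKM (SD, n = 2 each) differed 2.93-fold, or -1.45 ± 0.23 on the log2 scale (SE; adjusted p = 0.0174 by limma). Without CD49b+ replicate 1 or 2 the adjusted p was 0.0580 or 0.145, and over 14 alternatives it ranged from 0.000324 to 0.145. In each library the level of Cd2 was 15.4 to 21.2 times that of Cd28.

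Thy1 was high in both subsets. It stood at 262 and 322 RPKM in TRAIL+ replicates 1 and 2, and at 206 and 242 RPKM in CD49b+ replicates 1 and 2. Both TRAIL+ values lay above both CD49b+ values, and TRAIL+ replicate 1 was nearer to CD49b+ replicate 2 than to TRAIL+ replicate 2. The means of 292 ± 42.3 and 224 ± 25.2 RPKM (SD, n = 2 each) differed by 0.38 ± 0.20 on the log2 scale (SE; adjusted p = 0.397 by limma), with a 95% interval of -0.12 to 0.87. Differences inside that interval cannot be told apart with these libraries. Set against Cd2 in the same library, Thy1 was 2.26 and 1.85 times as high in TRAIL+ replicates 1 and 2, and 0.425 and 0.448 times as high in CD49b+ replicates 1 and 2, so the order of the most abundant pair differed between the subsets in these libraries.

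Cd5 and Cd6, the scavenger-receptor pair, were near 0 throughout. Cd6 stood at 0.725 and 0.520 RPKM in TRAIL+ replicates 1 and 2, and at 0.465 and 0.250 RPKM in CD49b+ replicates 1 and 2. That is 15 reads against 9, or 1.73 times as many per total (exact 95% counting interval 0.710 to 4.49). Cd5 had 5 reads in TRAIL+ replicate 1, 0 in TRAIL+ replicate 2, and 4 and 1 in CD49b+ replicates 1 and 2. Its ratio of TRAIL+ over CD49b+ reads per total was 1.04, with a counting interval of 0.239 to 4.52, so neither gene showed a difference detectable at this depth. The members nearest to the filter were Cd4 and Trat1 on the inside, and Cd8b1, with 1.16 RPKM in 1 library, and Cd6 on the outside.

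**Figure D2:**
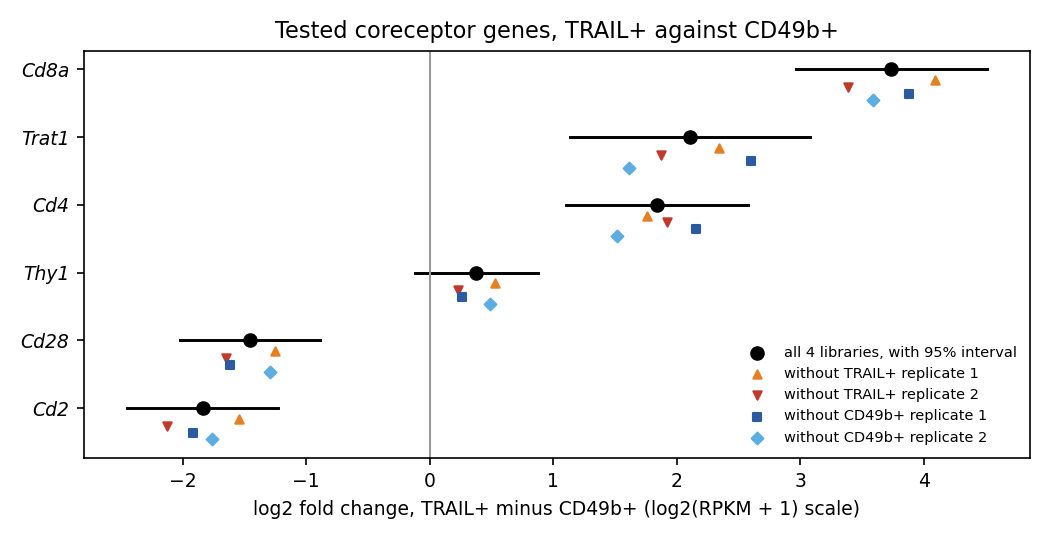
Log2 fold change (TRAIL+ minus CD49b+, log2(RPKM + 1) scale) of the 6 tested genes; black dots and lines are the estimate with all 4 libraries and its 95% interval, and small symbols are estimates with 1 library left out. Cd8a lies between 3.39 and 4.09 in every such estimate, and the Thy1 interval spans 0.

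In TRAIL+ cells the order of mean levels was Thy1, Cd2, Cd8a, Cd28, Trat1, Cd4, Cd6, Cd5, Themis and Cd8b1. Neighbours in this order had separate library ranges down to Cd28, whose range overlapped that of Trat1, and again from Trat1 to Cd4 and from Cd4 to Cd6, below which each range overlapped the next. The place of Trat1 in either subset depends on the gene length behind its RPKM, which is uncertain as stated above. In CD49b+ cells the order was Cd2, Thy1 and Cd28, each with a separate range. Below them came 7 genes, from Trat1 (1.04 ± 0.9499 RPKM, SD) to Themis (0.0889 ± 0.126 RPKM), in which each range overlapped the next. Genes further apart among the 7 could be separate, as Trat1 (0.368 to 1.71 RPKM) was from Cd8a (0 to 0.226 RPKM). Cd8a held place 3 in TRAIL+ cells. In CD49b+ cells, with 3 reads, it held place 9, and its range overlapped that of Themis.

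**Figure D3:**
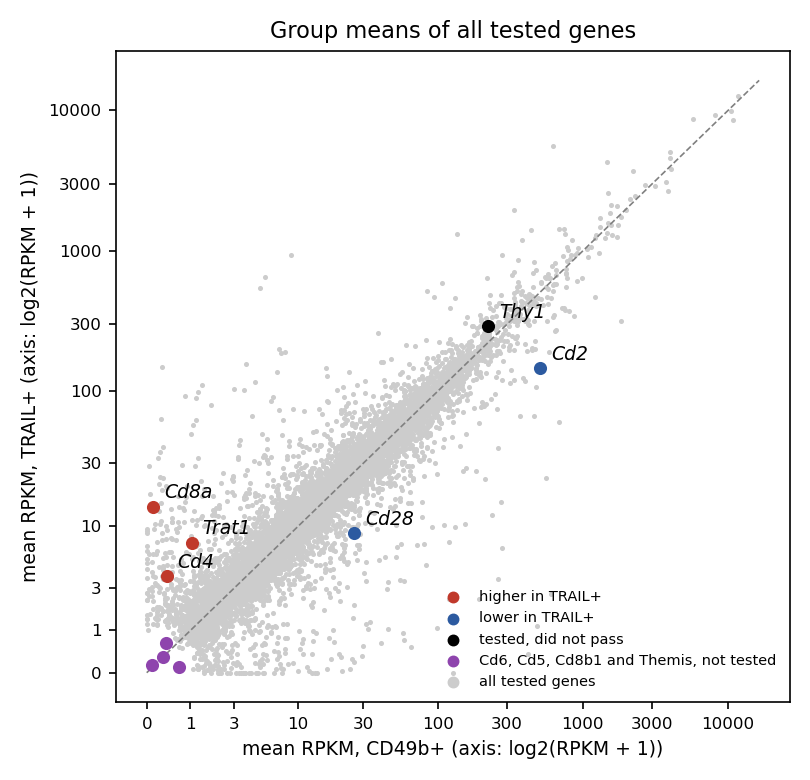
Mean RPKM in TRAIL+ (vertical) against CD49b+ cells (horizontal) for all 10047 tested genes (grey), on axes of log2(RPKM + 1), with the 10 members coloured by call; the dashed line marks equal levels. Cd8a, Trat1 and Cd4 lie above the line near the low end of the horizontal axis, and Cd2 and Cd28 lie below it.

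Some members lie beside each other in the genome, and neighbours by RefSeq order on GRCm38.p6 are given by name. Cd8a and Cd8b1 are adjacent on chromosome 6 and differed as described above, while Rmnd5a on the other side of Cd8a stood at 28.05 to 32.5 RPKM in all libraries. Cd4 lies between Gpr162 and Lag3 on the same chromosome. Lag3, an inhibitory receptor related to CD4, stood at 169 and 204 RPKM in TRAIL+ replicates 1 and 2, and at 6.11 and 8.60 RPKM in CD49b+ replicates 1 and 2 (4.50 ± 0.21 on the log2 scale, SE; adjusted p = 0.000583 by limma). Both genes were called higher, and Lag3 was far more abundant than Cd4, whereas Gpr162 had at most 0.458 RPKM.

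Cd5 and Cd6 are adjacent on chromosome 19, both near 0, between Vps37c and Slc15a3. Vps37c, a sorting complex subunit, was called higher (log2 fold change 0.86 ± 0.17, limma adjusted p = 0.0397), a call that ended with CD49b+ replicate 1 (0.410), CD49b+ replicate 2 (0.341) or TRAIL+ replicate 2 (0.0590) left out, with no filter and with median scaling. Slc15a3 did not pass (adjusted p = 0.338). Next to Cd28 on chromosome 1 lie Raph1, which did not pass (adjusted p = 0.147), and the inhibitory CD28 relative Ctla4, which had 1.65 RPKM or less in every library and was not tested. The neighbours of Trat1 (Morc1 and Retnlb) were listed at 0 in all libraries, and those of Thy1 (Nectin1 and Usp2), of Themis (Ptprk and 2310057J18Rik) and Igsf3 beside Cd2 stood under 1 RPKM. Of the remaining neighbours, Gm1070 beside Cd8b1 and Gm52612 beside Cd2 were not analysed here.

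Genes with the most similar levels were found by Euclidean distance on log2(RPKM + 1) over the 4 libraries, which is a description of 4 points that share their libraries. Nearest to Cd8a were Adgrg3 (distance 0.445) and Ltb4r1 (0.566), and nearest to Cd4 were Bik (0.296) and Pak6 (0.435). Cfap126 (0.738) and Gstp3 (0.813) were nearest to Trat1. Among the lower members, Rhoq (0.309) and Myadm (0.519) were nearest to Cd28, and Atp1b3 (0.637) and Klra9 (0.651) to Cd2. Klra9 belongs to a family of near-identical genes that can share reads.

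Other surface receptors of T cells were called in both directions. Of 21 tested genes of a list of 25, 10 rose, 5 fell and 6 did not pass, with a median log2 fold change of 0.69 against 0.00499 over all tested genes. Of all tested genes, 4.76% were called higher and 3.86% lower. Among those that rose were Cd3g, a CD3 chain (812 and 1060 RPKM in TRAIL+, 6.65 and 11.1 RPKM in CD49b+ replicates 1 and 2), Lag3, the inhibitory receptor gene Pdcd1 (PD-1, log2 fold change 3.22 ± 0.24) and Cd7 (3.15 ± 0.30). Ly6c2 (-4.59 ± 0.31) was among those that fell. Its deposited name was LY6C1, so it is uncertain which gene its reads belong to. Named after their values were seen, Cd3e, Cd160, Cd226, Cd3d, Tigit and Cd96 were the other higher genes and Slamf6, Spn and Cd247 were also lower. Cd3e rose from 2.62 and 3.87 RPKM in CD49b+ to 21.3 and 43.2 RPKM in TRAIL+ cells (log2 fold change 2.90 ± 0.37).

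The CD3 chains did not move as 1 block: Cd247, the zeta chain that NK receptors also use, was lower (-1.13 ± 0.15, limma adjusted p = 0.0110). Without CD49b+ replicate 1, 6 of the 15 calls in this list were lost (Cd7, Cd3d, Cd247, Tigit, Cd96 and Spn, adjusted p 0.0508 to 0.316), and without CD49b+ replicate 2, 5 were lost (the same but Tigit, adjusted p 0.0566 to 0.2503). Cd27 and Icos, costimulatory receptors like CD28, had log2 fold changes of 0.53 and 0.68 and did not pass (adjusted p = 0.142 and 0.144), although Cd27 passed without TRAIL+ replicate 1 (0.0409) and with the gene length correction (0.0430).

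Most signalling partners of the coreceptors did not pass the test. Of 41 tested genes, 7 rose, 1 fell and 33 did not pass, with a median log2 fold change of 0.32. The share called was above the 8.62% of all tested genes, whose median log2 fold change was 0.00499. Lck, the kinase that CD4 and CD8 carry, stood at 335 and 373 RPKM in TRAIL+ and 361 and 373 RPKM in CD49b+ replicates 1 and 2 (log2 fold change -0.05, limma adjusted p = 0.927). Its relative Fyn fell by 1.28 on the log2 scale, whereas the phospholipase gene Plcg1 (2.14 ± 0.39), Ubash3a (1.57 ± 0.20), which encodes a negative regulator of T-cell receptor signals, and the adaptor gene Sit1 (1.56 ± 0.25) rose. Sit1 had only 10 and 11 reads in TRAIL+ and 1 and 0 reads in CD49b+ replicates 1 and 2. Its call was lost with voom on the reads (limma adjusted p = 0.0571).

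The other genes that rose, named after their values were seen, were Pstpip1, a CD2-binding adaptor (1.11 ± 0.16), Zap70 (0.96), Dok1 (0.88) and Lcp2 (0.81). Pstpip1 and Cd2, whose products bind each other, were called in opposite directions. Of the 8 calls, 6 were lost without CD49b+ replicate 1 (adjusted p 0.0562 to 0.415) and 7 without CD49b+ replicate 2 (0.0654 to 0.479), leaving Plcg1 and Sit1 in the former and Ubash3a in the latter. Without TRAIL+ replicate 1, 11 rose and 5 fell, and 13 and 4 after a correction for gene length.

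Transcription factors of the T lineage divided between the subsets. Of 16 tested, 3 rose and 4 fell, with a median log2 fold change of -0.29. Over all tested genes 4.76% were called higher and 3.86% lower, with a median of 0.00499. Bcl11b, which commits cells to the T lineage, stood at 13.1 and 7.43 RPKM in TRAIL+ and 0.894 and 1.44 RPKM in CD49b+ replicates 1 and 2 (log2 fold change 2.34 ± 0.32). Id3, an inhibitor of E proteins, rose as well (2.87 ± 0.29), as did Tox, named after its value was seen. Tcf7 (-1.79 ± 0.15), Lef1 (-2.31 ± 0.28) and Satb1 (-1.50 ± 0.18) fell, and Myb had 0 reads in TRAIL+ against 106 in CD49b+ cells, which is at least 34.0-fold lower when 3 reads are taken as the floor for both libraries together. Runx3 and Zbtb7b, known as the regulators that separate CD8 from CD4 T cells, and Gata3 did not pass, with log2 fold changes of -0.57, -0.32 and 0.13, although Runx3 passed without TRAIL+ replicate 1 (adjusted p = 0.0295). Satb1 no longer passed with CD49b+ replicate 1 left out (adjusted p = 0.0615).

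Ligands of the members were mostly not called. Of 12 tested genes of a list of 14, 2 rose (Itgb3 and Itgav, integrin chains whose pair binds Thy1, both with a log2 fold change of 1.22), 0 fell and 10 did not pass, with a median log2 fold change of 0.54. That is no smaller a share than the 8.62% called over all tested genes. Leaving out either CD49b+ library ended both calls (adjusted p 0.107 to 0.312), and that of Itgav also without TRAIL+ replicate 2 (0.0619) and in 6 further settings. The CD2 ligand gene Cd48 stood at 329 and 426 RPKM in TRAIL+ and 390 and 453 RPKM in CD49b+ replicates 1 and 2 (limma adjusted p = 0.793). The CD6 ligand gene Alcam, at 0.159 to 1.53 RPKM, missed the threshold (log2 fold change -1.003, limma adjusted p = 0.0678) and passed in 5 alternatives. Of the CD28 ligand genes, Cd80 had at most 0.416 RPKM and was not tested, and Cd86 did not pass (adjusted p = 0.138).

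**Figure D4:**
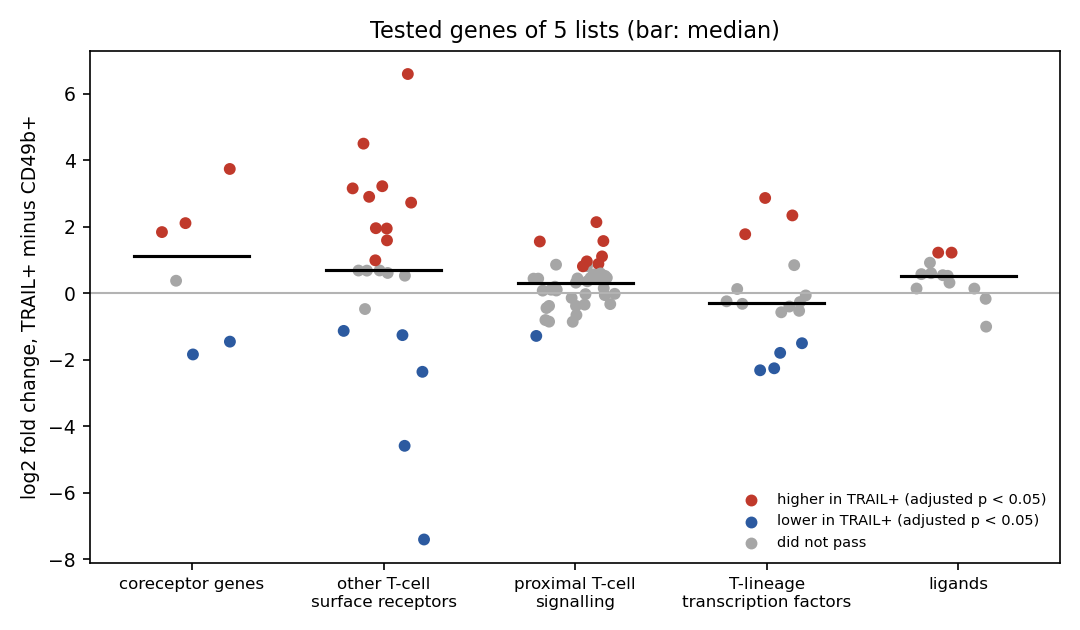
Log2 fold change (TRAIL+ minus CD49b+) of each tested gene in the coreceptor group and 4 lists of related genes; red and blue dots are genes called higher and lower in TRAIL+ cells, grey dots did not pass, and black bars are medians. Among other T-cell surface receptors Cd3g has the highest value, 6.59, and the median of the signalling genes is 0.32.

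Markers of cells that could carry these transcripts were set beside the results. Of 14 T-cell markers, 8 had a row, and the constant genes of the T-cell receptor loci were not analysed here. The summed level of the 8 was 54.4 and 104 RPKM in TRAIL+ and 16.2 and 14.7 RPKM in CD49b+ replicates 1 and 2, most of it Cd3d and Cd3e, which the surface receptor list also holds. The part of such RNA in the results was not tested. Foxp3 and Ptcra were at 0 in all libraries, Rag1 and Dntt had at most 0.110 RPKM, and Ccr7 stood at 1.74 and 0.534 RPKM in TRAIL+ and 2.39 and 0.771 RPKM in CD49b+ replicates 1 and 2. Cd40lg, not tested, stood at 1.37 and 0.842 RPKM in TRAIL+ and 0.565 and 0 RPKM in CD49b+ replicates 1 and 2. That is 11 reads against 3. Cd5, Cd6 and Themis, which T cells also express, were near 0 in both subsets. Cd8b1, which Cd8 T cells express, had 1 read in the TRAIL+ libraries beside 347 reads of Cd8a. Cd3d, Cd3e and Cd40lg stood higher in TRAIL+ than in CD49b+ cells. The part of T cells in the reads of Cd8a was not tested.

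Dendritic cells can carry CD8 alpha chains alone. Of 7 dendritic cell markers, 1 was tested, Xcr1, and it was higher in TRAIL+ cells (54 and 54 reads against 2 and 1, log2 fold change 1.92, limma adjusted p = 0.00718), having passed the filter through the TRAIL+ libraries alone. The others were low: Flt3 had 7 and 0 reads in TRAIL+ replicates 1 and 2, Clec9a 1 and 0, and Zbtb46, not tested, stood at 0.532 and 0.531 RPKM in TRAIL+ and 1.17 and 0.944 RPKM in CD49b+ replicates 1 and 2. The sum of the 7 was 6.98 and 4.27 RPKM in TRAIL+ and 4.85 and 1.00 RPKM in CD49b+ replicates 1 and 2. The part of such cells in the Cd8a reads was not tested.

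Among markers of other innate lymphoid cells, Il22, Il17a and Il13 were at 0. Il7r, the IL-7 receptor gene, and Kit led that list, and their directions differed. Kit stood at 5.81 and 8.12 RPKM in TRAIL+ and 11.7 and 12.5 RPKM in CD49b+ replicates 1 and 2. It did not pass (log2 fold change -0.73, limma adjusted p = 0.131). Il7r stood at 25.6 and 32.6 RPKM in TRAIL+ and 9.10 and 13.9 RPKM in CD49b+ replicates 1 and 2 (log2 fold change 1.28, limma adjusted p = 0.0392), a call lost without CD49b+ replicate 1 (0.256) or 2 (0.0553). B-cell markers, led by Cd79b and Cd79a, summed to 22.01 and 15.7 RPKM in TRAIL+ and 23.3 and 12.2 RPKM in CD49b+ replicates 1 and 2, and none of them was called. In CD49b+ cells the library with more reads of Cd4, Cd8a, Cd8b1, Cd5, Cd6, Trat1 and Themis was replicate 1 in each case, which also had the higher sums of B-cell, Kupffer cell and hepatocyte markers. Their part in those few reads was not tested. Neutrophil markers (S100a9 and S100a8) and the erythroid gene Alas2 followed the same order, and 8 endothelial and stromal markers, Col1a1 and Stab2 first, summed to 0.392 RPKM or less in each library beside the high level of Thy1, which stromal cells can also express.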

How the data were processed

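The authors deposited RNA-seq levels of sorted liver NK cells as RPKM, reads per kilobase of gene scaled to library size, per the file headers. The submitters' processing notes name TopHat 1.4.1 and mm9. No source used here names the counting tool, annotation, filters or strand setting, and without strand a gene and its antisense partner share reads. Sample titles gave each library's group and number.

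Rows were named by RefSeq accession on GRCm38.p6 (20657), symbol (194) or synonym (65), and 109 kept the file's name. Members were taken by symbol. Whole reads were derived from the RPKM steps in 100% of 13681 rows above 0 (relative tolerance 1e-06). One gene length per row was chosen for all 4 libraries, with preference for lengths near the GENCODE M21 transcript. Reads are less certain where all those of a row may share a factor. Intervals and floors cover counting error only.

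The test was limma 3.58.1 in R 4.3.3 on log2(RPKM + 1), with the subset as its term, a trended prior, 2 residual degrees of freedom and a prior of 3.51, adjusted by Benjamini-Hochberg over 10047 genes. Fold changes are TRAIL+ minus CD49b+ and understate those of low genes. The smallest exact permutation p with 2 against 2 is 0.333, so none was used. The script was tested on simulated data.

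Alternatives changed the pseudocount, filter, scaling, prior, replicate block, unit (voom on reads) and libraries. A gene length correction was added after seeing the data. The members, lists and motifs were chosen with earlier results of these data known. The rule for names took all members, sort genes, genome neighbours, up to 4 called genes of each related list with 2 of the opposite direction, the 2 most abundant markers of each other cell type, and the 2 genes nearest to each called member. Names outside it were chosen after their values were seen. Some items of the lists are not reported here.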

Additional observations from a re-analysis of the deposited data

How the results depend on the processing

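Of 943 values of 68 tested genes under the alternatives, 850 kept their direction and side of the threshold, 69 lost a call, 16 gained one and 8 changed sign. The changes of sign were in genes that did not pass. With 1 library left out, log2 fold changes ranged from -0.344 to 0.124 for Klrb1c (also 0.0213 without CD49b+ replicate 2), -0.118 to 0.0592 for Ncr1 (0.0403 without CD49b+ replicate 2), -0.1315 to 0.0228 for Lck, -0.352 to 0.0195 for Cd48 and -0.663 to 0.0294 for Zbtb7b. That of H2-K1 was -0.0101 with quantile normalization. The cause was not tested. With 1 library left out, genes called ranged from 245 to 777 higher and 198 to 763 lower, members called from 1 to 3 higher and 0 to 2 lower, surface receptors from 6 to 11 higher and 3 to 5 lower, signalling partners from 1 to 11 higher and 0 to 5 lower, T-lineage factors from 3 to 4 higher and 3 to 6 lower, and ligands from 0 to 2 higher and 0 to 1 lower. These fits have fewer samples. The median log2 fold change of all genes was -0.0202 with quantile normalization and -0.0129 with median scaling.

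With a pseudocount of 0.1, 1 member was higher (Cd8a). Higher ligands numbered 1 with that pseudocount, no filter, quantile normalization, median scaling and no trend in the prior, and 1 ligand was lower with no filter, no trend and voom. The gene length correction gave 725 genes higher and 597 lower, and 13 and 4 signalling partners.

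The replicate numbers may not pair the libraries, since the labels do not say so. The deviations of equal numbers correlated at 0.563 over genes. With the replicate block, 1049 genes were higher and 833 lower, 5 ligands higher and 1 lower, 15 signalling partners higher and 4 lower, and the counts of members were the same as without it. Of the named genes that did not pass, Cd27 (adjusted p = 0.0218), Icos (0.04945), Runx3 (0.0169), Cd86 (0.0413), Alcam (0.0205) and Lat (0.00507) passed with the block. Depth limits Cd5, Cd6, Cd8b1 and Themis, with 7 to 24 reads each over all libraries.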
